A study of Homo sapiens with 12 samples.

Results

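The CEP genes, named for centrosomal proteins and taken here as every gene whose symbol is CEP followed by digits only, were followed through the phorbol ester response of a pair of pancreatic cancer cell lines. The rule found 32 genes among the 19775 that had a probe set with exactly 1 symbol, and each gene was represented by the probe set with the highest mean log2(signal + 3) over the 12 arrays. Genes were chosen by symbol and their probe sets by the mean signal over all groups, but the family was picked with its response to PMA already known, so counts over the family are a description. All 32 were among the 16099 genes that lay above the array's 40th percentile on at least 3 arrays and were tested. CEP170, whose probe sets here are shared with another symbol, and CEP83 were not analysed here.

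RNA was hybridised to Affymetrix arrays, 3 per group, and the values are signal intensities on a linear scale. The groups were BxPC-3 cells given PMA, untreated BxPC-3 cells, AsPC-1 cells given PMA and untreated AsPC-1 cells. BxPC-3 is an established human line from a primary pancreatic tumour and AsPC-1 one from ascites, and the series compared their responses to an agent used to induce invasion. PMA (phorbol 12-myristate 13-acetate, an activator of protein kinase C) was given at 1 µM in 0.1% DMSO for 4 h after a night in 2.5% serum. The low serum was common to all groups, and the labels do not say which vehicle, if any, the untreated cells received. Replicates 1, 2 and 3 were passages 7, 9 and 11 of BxPC-3 and passages 8, 10 and 12 of AsPC-1, with treated and untreated cells of a replicate from the same passage, so the p-values measure spread between passages of 1 line each.

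A centrosome holds a pair of centrioles inside a protein matrix that nucleates microtubules. Centrioles are copied once per cell cycle, when the kinase PLK4 and the proteins STIL and SASS6 start a new centriole beside each old one and elongation factors extend it. The older centriole carries appendages that anchor microtubules and dock at the cell surface to build a primary cilium, a linker ties the pair together until mitosis, and small granules called satellites shuttle components to the site. The CEP proteins have no common sequence family and take part in all of these steps. Pancreatic cancers are known for extra centrosomes and for the loss of primary cilia.

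The arrays shared a scale, with trimmed mean signals between 99.982 and 99.986. AsPC-1 PMA replicate 1 stood apart, with a mean correlation of 0.921 with the other arrays of its group and 0.964 with the untreated array of its passage, and results that rest on it are given with and without it. For ACTB, a control for intact RNA, the signal at the 3′ end over that at the 5′ end was 1.84, 1.99 and 2.02 in BxPC-3 PMA arrays, against 2.56, 2.95 and 4.14 in untreated BxPC-3 arrays. It therefore moved with treatment in BxPC-3, and its part in the results for that line was not tested. In AsPC-1 it was 2.12, 2.32 and 1.79 after PMA and 2.22, 2.27 and 2.24 untreated. The same ratio for GAPDH overlapped in BxPC-3, at 1, 1.07 and 1.02 after PMA and 1.04, 1.06 and 1.12 untreated. All 6 epithelial markers were above the filter, with summed signals between 14030 and 29810 on any array. Summed signals of the 3 leukocyte and 4 endothelial markers with a probe set were at most 90.4 and 78.4. The 5 fibroblast markers summed to between 143 and 225 in BxPC-3 and to between 1340 and 3416 in AsPC-1, where LUM alone reached 3396. In these bulk samples, fewer cells that make an RNA and less of it per cell cannot be told apart.

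In BxPC-3, PMA lowered 6 of the 32 CEP genes and raised 0 at an adjusted p under 0.05 (limma's moderated test on log2(signal + 3), Benjamini-Hochberg over all 16099 genes). The 6 were the linker protein gene CEP68, the cilium and microtubule gene CEP126, the centriole maturation gene CEP295, and the centriole assembly genes CEP85, CEP57 and CEP120, with log2 changes between -1.96 and -0.98. Of all genes tested, 3.3% were lower by the same rule, 532 of 16099. At an unadjusted p under 0.05, limma found 12 CEP genes lower and 0 higher, beside 11.7% and 9.17% of all genes. The change was negative for 27 of the 32, with a median of -0.45, beside a median of 0.0002 over all genes tested. Of all 16099 genes, 8047 had a negative change. Every PMA array lay below every untreated array for 20 of the 32, which held for 21.9% of all genes. The median signal of the 32 genes was 86.6, 84.7 and 86.8 on the PMA arrays, against 150.4, 138 and 161 on the untreated arrays, so the array medians did not overlap. On the log2 scale, the medians of all genes tested did not overlap either, at 6.04, 6.14 and 6.07 on the PMA arrays, against 6.22, 6.23 and 6.19 on the untreated arrays, a smaller gap than the family's 6.45 to 6.49 against 7.14 to 7.36.

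**Figure D1:**
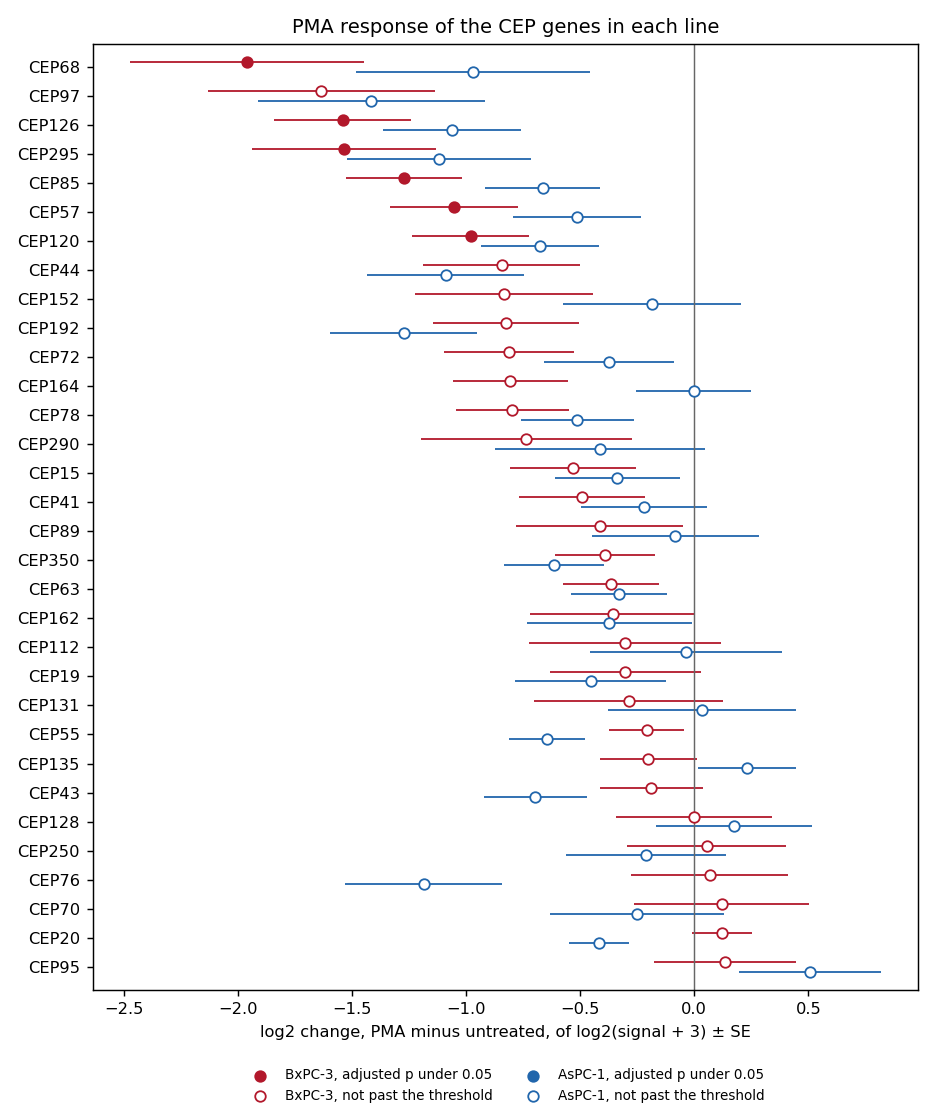
Change with PMA of each of the 32 CEP genes, as the mean log2(signal + 3) of 3 PMA arrays minus that of 3 untreated arrays, in BxPC-3 (red) and AsPC-1 (blue), with bars of 1 SE from the shared fit. Filled points passed an adjusted p of 0.05: CEP68, CEP126, CEP295, CEP85, CEP57 and CEP120 in BxPC-3, and 0 genes in AsPC-1, while 27 and 28 of the points are left of 0. Of all 16099 genes tested, 8047 and 9495 had a negative change.

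These counts moved with the arrays that entered the fit, in which all 12 share 1 estimate of the spread. Without AsPC-1 PMA replicate 1, 12 CEP genes were lower in BxPC-3, beside 9.17% of all genes, and the 6 above were among them. With the 6 BxPC-3 arrays alone the count was 16, beside 13.5% of all genes, and with passage as a block it was 9, beside 6.06%. It was 1 or 2 when any 1 of the 6 BxPC-3 arrays was left out, and 2 without AsPC-1 untreated replicate 3. The share of all genes is not given for those fits, which have fewer degrees of freedom, so these drops are not read as particular to the CEP genes.

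On the chosen probe sets, the largest falls among genes that license and build centrioles were in CEP295 and CEP97. CEP295, which turns a new centriole into a working centrosome, had signals of 48.5, 26.6 and 35.6 in BxPC-3 PMA arrays, against 115, 111 and 103 in untreated BxPC-3 arrays. The groups did not overlap, and the change was -1.53 ± 0.40 on the log2 scale (SE, adjusted p = 0.0414). CEP97, the partner of CCP110 that caps centrioles and holds back their growth, had 69.6, 68.2 and 65.8 after PMA, against 239.6, 221 and 192 untreated. All 3 PMA arrays were lower and close to each other, but the change of -1.63 ± 0.50 did not pass, with an adjusted p of 0.0742. It passed with passage as a block (adjusted p = 0.0109) and without AsPC-1 PMA replicate 1 (adjusted p = 0.000192). Its AsPC-1 arrays, given below, enter its SE.

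CEP85, CEP57 and CEP120 act on the same assembly pathway. CEP85, which binds STIL and helps switch on PLK4, had 54.8, 85.5 and 56.1 in PMA arrays, against 176, 138 and 165 in untreated arrays, a change of -1.27 ± 0.25 (adjusted p = 0.0106). CEP57, a scaffold at the base of centrioles that works with CEP63 and CEP152, had 159.6, 155 and 179, against 306, 348 and 379 untreated, a change of -1.05 ± 0.28 (adjusted p = 0.0445). CEP120, needed for centrioles to lengthen, had 71.2, 84.6 and 84, against 164, 155 and 162 untreated, a change of -0.98 ± 0.26 (adjusted p = 0.041). In all 3 every treated array lay below every untreated one, and the untreated CEP120 arrays were close to each other.

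Further assembly genes had lower values without a call. CEP192, the scaffold that recruits PLK4 and the kinase AURKA, had 81.6, 95.8 and 88.9 after PMA, against 168, 151 and 160 untreated. Its groups did not overlap, and the change of -0.83 ± 0.32 (adjusted p = 0.156) passed with passage as a block (adjusted p = 0.0378) and without AsPC-1 PMA replicate 1 (adjusted p = 0.00987). CEP44 (-0.84), CEP152 (-0.83), CEP78 (-0.80) and CEP63 (-0.37) also had every PMA array below every untreated one. CEP76, a brake on repeated centriole copying, and CEP135, a cartwheel protein, had overlapping groups and log2 changes of 0.07 and -0.20. Of the 12 genes of centriole assembly and length, 4 fell and 10 had groups apart in the lower direction, with a median change of -0.84. Of all genes tested, 3.3% fell and 21.9% had groups apart that way. Counts in roles this small, here and below, are not read as a difference between roles.

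Among 9 genes of the mature centriole, its appendages and the linker, 1 fell, beside 3.3% of all genes. CEP68, a component of the fibres that tie the centrioles together, had 13, 29.5 and 25.4 in BxPC-3 PMA arrays, against 75.1, 82 and 128 in untreated arrays. The means were 22.6 ± 8.55 and 95 ± 28.7 (SD, n = 3 each), with no overlap and a change of -1.96 ± 0.51 (adjusted p = 0.0408), the largest of the 32. CEP164, a distal appendage protein that starts cilium formation, had 147, 114 and 134, against 232, 218 and 246 untreated. Those groups were also apart, and the change of -0.81 ± 0.25 (adjusted p = 0.0794) passed with passage as a block (adjusted p = 0.0182) and without AsPC-1 PMA replicate 1 (adjusted p = 0.0067). On the chosen probe sets the other 7 had changes between -0.41 and 0.12, with CEP250, the anchor of the linker, at 0.05 and CEP20 at 0.12. Their other probe sets past the filter ranged more widely, from -1.15 for CEP350 to 0.92 for CEP128. CEP350 had -0.83 on a probe set with a median signal of 201, and CEP19 had -0.71 on one about as bright as its chosen one.

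Of 7 genes of satellites, cilium and microtubules, CEP126 fell, beside 3.3% of all genes. This gene, whose product binds microtubules at the centrosome and the base of the cilium, had 37.7, 29.4 and 34.2 after PMA, against 90.7, 122 and 100.3 untreated. The means of 33.8 ± 4.19 and 104 ± 16 (SD, n = 3 each) gave a change of -1.54 ± 0.30 and the lowest adjusted p of the family in this comparison, 0.00987. CEP72, a satellite protein, had a change of -0.81 ± 0.28 (adjusted p = 0.116), and CEP290, a protein of the ciliary gate, one of -0.74 ± 0.46 (adjusted p = 0.401). CEP70, which binds γ-tubulin, was the only member with every PMA array above every untreated one, at 172, 172 and 182 against 158, 155 and 169.6, and its change of 0.12 ± 0.38 did not pass. CEP55, which brings the membrane-cutting ESCRT machinery to the midbody at the end of division, had 391, 374 and 357 after PMA and 483, 426 and 393 untreated. Its groups were apart by a small gap and its change of -0.21 ± 0.16 did not pass (adjusted p = 0.53). CEP15, CEP95 and CEP112, listed here without a role, had changes of -0.53, 0.14 and -0.30, with adjusted p-values of 0.297 or more.

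**Figure D2:**
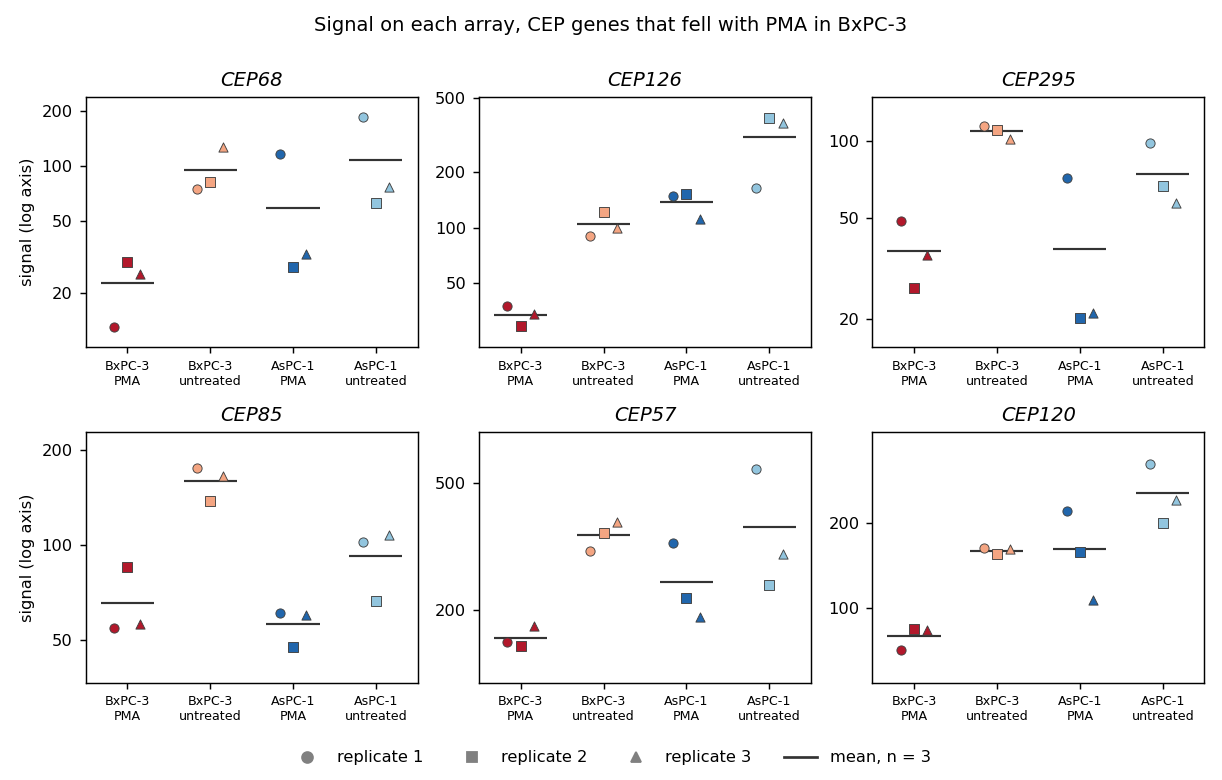
Signal on each array, on a log axis, of the 6 CEP genes that fell with PMA in BxPC-3, with PMA arrays left of untreated arrays in each line, marker shapes for the replicate and a bar for the mean of 3. In BxPC-3 the groups are apart for all 6, while in AsPC-1 replicate 1 lies above replicates 2 and 3 after PMA for CEP68, CEP295, CEP57 and CEP120.

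Other probe sets of these genes mostly had the same sign. Past the filter there were 55 further probe sets over the family, and 45 had the sign of the chosen one in BxPC-3, including all 13 of the 6 genes that fell. The 4 other CEP57 probe sets had changes between -1.11 and -0.83, the smaller change of the 2 other CEP126 probe sets was -0.86, and that of the second CEP120 probe set was -1.36. The sizes differed for CEP85, whose second probe set had -0.39, and for CEP68 and CEP295, whose dimmer probe sets had changes between -1.48 and -0.50. The chosen CEP57 and CEP68 probe sets carry a mark of the array's design for probes that can match several transcripts, as do those of 12 of the 32 genes, CEP76 and CEP97 included. The other CEP97 probe sets, which were dimmer, had smaller changes of -0.95 and -0.57. The 2 further CEP164 probe sets, at -0.10 and 0.00, did not show its lower value.

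The promoters of CEP68, CEP126 and CEP295 are printed because, of the genes that fell, these have a single RefSeq start window. Each window runs 5′ to 3′ on the gene's strand from 250 bases before to 50 after the annotated start (RefSeq, GRCh38.p14, plus strand for all 3), at chr2:65056166-65056465 for CEP68, chr11:101914760-101915059 for CEP126 and chr11:93661432-93661731 for CEP295. Capitals mark matches, on either strand, to CCAAT (the CCAAT box, ATTGG on the other strand), TTTGAA (the cell cycle homology region), TGANTCA (the AP-1 element) or TTTNGCGC (an E2F element). Matches to GGGCGG (the GC box) were counted but left in lower case.
CEP68: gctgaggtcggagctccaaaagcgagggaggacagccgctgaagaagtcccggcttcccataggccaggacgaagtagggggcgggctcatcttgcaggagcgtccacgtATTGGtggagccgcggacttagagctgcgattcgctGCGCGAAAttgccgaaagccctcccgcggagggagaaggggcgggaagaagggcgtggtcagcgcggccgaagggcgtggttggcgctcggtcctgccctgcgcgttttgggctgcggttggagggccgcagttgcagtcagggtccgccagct
CEP126: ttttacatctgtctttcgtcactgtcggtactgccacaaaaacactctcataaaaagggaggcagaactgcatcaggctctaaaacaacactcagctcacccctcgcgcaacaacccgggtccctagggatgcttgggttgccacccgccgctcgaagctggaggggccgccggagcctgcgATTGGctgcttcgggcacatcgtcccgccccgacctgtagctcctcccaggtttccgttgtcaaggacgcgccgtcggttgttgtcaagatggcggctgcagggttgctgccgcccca
CEP295: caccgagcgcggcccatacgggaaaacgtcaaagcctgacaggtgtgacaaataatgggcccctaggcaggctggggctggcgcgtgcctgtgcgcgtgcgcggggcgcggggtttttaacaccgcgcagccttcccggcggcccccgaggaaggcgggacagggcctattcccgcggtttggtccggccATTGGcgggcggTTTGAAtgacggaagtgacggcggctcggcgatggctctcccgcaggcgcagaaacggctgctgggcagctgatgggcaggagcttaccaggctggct
All 3 windows hold 1 CCAAT box on the other strand. CEP68 also has 1 E2F element and CEP295 1 cell cycle homology region, and no AP-1 letters are in these windows.

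Windows were found for 29 of the 32 genes, 36 windows in all. CCAAT was in 52.8% of them and in 34.6% of the 35116 windows of all genes, TTTGAA in 38.9% and 15.2%, and TTTNGCGC in 11.1% and 1.79%. GGGCGG was in 69.4% and 45% and TGANTCA in 5.56% and 7.71%, and the median GC content was 61.5% and 58.7%. Of the 6 genes that fell, 5 had a CCAAT match in a window, 3 a TTTGAA match, 2 a TTTNGCGC match, 6 a GGGCGG match and 1, CEP85, a TGANTCA match. On chromosome 11 lie 3 of the 6, CEP57, CEP126 and CEP295, and 4 of the 29 genes with a window. These shares describe letters in the windows and were not tested.

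In AsPC-1, limma called 0 of the 32 CEP genes with PMA, beside 0.721% of all genes lower, 116 of 16099. At an unadjusted p under 0.05 it found 12 lower and 0 higher, beside 10.1% and 6.43% of all genes. The change was negative for 28 of the 32, with a median of -0.42, beside -0.10 over all genes. Of all 16099 genes, 9495 had a negative change, so the line leaned that way as a whole. Groups were apart in the lower direction for 8 of the 32, beside 8.37% of all genes. The median signal of the family was 114, 61.9 and 56.6 on the PMA arrays, against 144, 85.5 and 96.6 on the untreated arrays. Replicate 1, passage 8, was the highest array of the family in both groups, and PMA replicate 1 lay above untreated replicates 2 and 3. The median log2 of all genes tested had the same order, at 6.23, 5.82 and 5.81 after PMA and 6.34, 6.10 and 6.09 untreated.

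**Figure D3:**
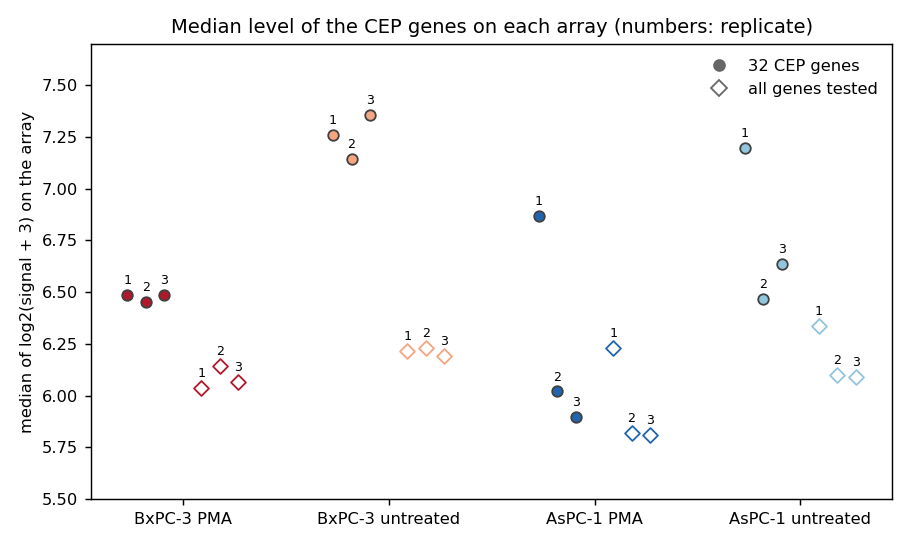
Median of log2(signal + 3) on each array over the 32 CEP genes (circles) and over all genes tested (diamonds), with PMA arrays left of untreated arrays in each line and the replicate number above each point. The BxPC-3 PMA arrays sit together at 6.45 to 6.49, below the untreated ones at 7.14 to 7.36, while in AsPC-1 replicate 1 is above replicates 2 and 3 in both groups.

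With passage as a block, which compares each PMA array with the untreated array of its passage, limma called 5 CEP genes lower in AsPC-1, beside 2.83% of all genes. They were CEP97 (adjusted p = 0.0322), CEP192 (adjusted p = 0.01), CEP295 (adjusted p = 0.0433), CEP44 (adjusted p = 0.0326) and CEP55 (adjusted p = 0.0458). Without AsPC-1 PMA replicate 1 it called 12 lower, beside 13.5% of all genes, and 1, CEP95, higher, beside 981 of 16099 genes. The median change was then -0.66, beside -0.13 over all genes. Without AsPC-1 untreated replicate 1 it called 2, and without any 1 of the other 10 arrays 0, fits for which the share of all genes is not given. In a fit of only the 6 AsPC-1 arrays, 0 of all 16099 genes were called by limma, and at an unadjusted p under 0.05 it found 7 CEP genes lower, beside 5.21% of all genes.

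The array values show how far replicate 1 sets these results. CEP97 had 105, 16.8 and 17.2 in AsPC-1 PMA arrays, against 125, 72.5 and 82 in untreated AsPC-1 arrays. PMA replicates 2 and 3 were far below every untreated array and replicate 1 was among them, so that the change was -1.42 ± 0.50 with all arrays and -2.23 without replicate 1. CEP295 had 72, 20.1 and 21.1, against 98.7, 66.6 and 57.4 untreated, with the same split and changes of -1.12 ± 0.40 and -1.68. CEP68 had 116, 27.8 and 32.6, against 185, 62.7 and 76.7 untreated, a change of -0.97 ± 0.51 and, without replicate 1, of -1.59 (adjusted p = 0.0176). Within passage 8, all 3 genes were lower in the PMA array than in the untreated one.

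Some genes separated the AsPC-1 groups on all arrays. CEP192 had 118, 47.2 and 43.2, against 207, 132 and 137 untreated, a change of -1.27 ± 0.32 (adjusted p = 0.0629). CEP44, which helps new centrioles convert to centrosomes, had 122, 61.2 and 44.2, against 204, 128 and 132 untreated, a change of -1.09 ± 0.34 (adjusted p = 0.131). CEP126 had 148, 153 and 111, against 163, 393 and 367 untreated, a change of -1.06 ± 0.30 (adjusted p = 0.0988). In each, the highest PMA array was below the lowest untreated array. CEP55, with 404, 495 and 583 after PMA and 794, 782 and 722 untreated, had the lowest spread of these, and its change of -0.65 ± 0.16 did not pass with all arrays (adjusted p = 0.0661). CEP43, CEP350 and CEP20, centriole proteins that anchor microtubules or act in cilium formation, and CEP85 were also apart, with changes of -0.70, -0.61, -0.42 and -0.66.

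The other genes that fell in BxPC-3 had these AsPC-1 values. CEP57 had 324, 219 and 191 after PMA, against 555, 241 and 299 untreated, and CEP120 had 220.1, 158 and 107, against 322, 200.2 and 242. Untreated replicate 1 was the highest array of both, and the groups overlapped, with changes of -0.51 ± 0.28 and -0.68 ± 0.26. CEP85 had 60.9, 47.6 and 59.9, against 102, 66.5 and 108 untreated, with groups apart. Without PMA replicate 1, CEP295, CEP68, CEP126 and CEP120 were among the 8 CEP genes called lower in both lines, which share 1 fit. In that fit 9.17% of all genes were lower in BxPC-3 and 13.5% in AsPC-1, and the share lower in both was not counted. CEP57 and CEP85 were not called in AsPC-1 without that array (adjusted p = 0.0739 and 0.0725).

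CEP76 had the largest difference between the responses of the lines. It had 219, 147 and 216 in BxPC-3 PMA arrays, against 167, 169 and 214 in untreated BxPC-3 arrays, and 206, 93.3 and 87.1 in AsPC-1 PMA arrays, against 172, 371 and 322 in untreated AsPC-1 arrays. The BxPC-3 groups overlapped, while within AsPC-1 passages replicates 2 and 3 were lower after PMA and replicate 1 was higher. The response in BxPC-3 minus that in AsPC-1 was 1.25 ± 0.49 (adjusted p = 0.458), and 1.64 without AsPC-1 PMA replicate 1 (adjusted p = 0.0287). Its second probe set gave 1.54 with all arrays.

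Limma called 0 of the 32 differences of response, beside 0.491% of all genes, and 2 members in the higher and 1 in the lower direction had an unadjusted p under 0.05, which is 9.38% of the members beside 8.91% of all genes. The median difference was -0.27, beside 0.07 over all genes, and it was 0.08 without AsPC-1 PMA replicate 1, so its sign rests on that array. In that fit 2 members were called, beside 4.43% of all genes: CEP76 and CEP164. CEP164 had 147, 274 and 266 in AsPC-1 PMA arrays, against 171, 238 and 265 in untreated AsPC-1 arrays, with overlapping groups and a change of -0.00. Its difference of response was -0.80 ± 0.36 with all arrays (adjusted p = 0.542) and -1.09 in that fit (adjusted p = 0.0326). The other CEP164 probe sets did not show it, with differences of -0.07 and -0.08 with all arrays. CEP68, with a difference of -0.99 ± 0.72 (adjusted p = 0.762), was the second largest in size and did not pass in either fit (adjusted p = 0.78 without that array).

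Between the lines, BxPC-3 against AsPC-1, the CEP genes differed in both directions. After PMA 11 of the 32 passed, 5 higher and 6 lower in BxPC-3, beside 33.5% of all genes. Untreated, 13 passed, 8 higher and 5 lower, beside 32.4% of all genes. The 2 states share 7 genes, and 17 passed in either, an overlap that was not counted over all genes. The family's median difference was 0.12 after PMA and 0.05 untreated, beside 0.03 and -0.08 over all genes. Without AsPC-1 PMA replicate 1 the count after PMA was 18, 11 higher and 7 lower, beside 40.6% of all genes, and it was 7 without BxPC-3 PMA replicate 1 or 3 or AsPC-1 PMA replicate 2. The count untreated was 8 without replicate 2 of either untreated group. Shares of all genes are not given for the fits with counts of 7 and 8.

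**Figure D4:**
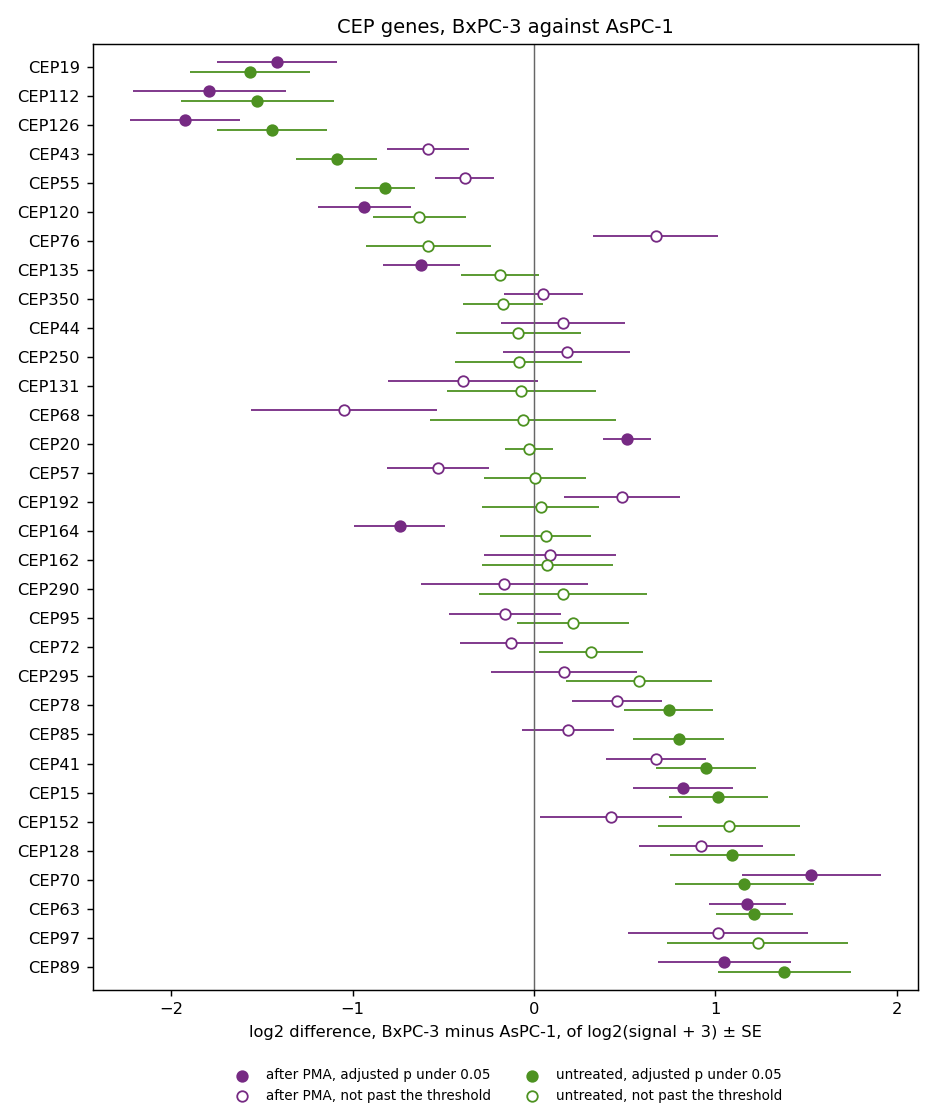
Difference between the lines of each of the 32 CEP genes, as mean log2(signal + 3) in BxPC-3 minus that in AsPC-1, after PMA (purple) and untreated (green), with bars of 1 SE from the shared fit. Filled points passed an adjusted p of 0.05, 11 after PMA and 13 untreated, and CEP19, CEP112, CEP126, CEP15, CEP70, CEP63 and CEP89 passed in both states.

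Of the genes higher in BxPC-3 in both states, CEP63 was the most separated. CEP63, which recruits CEP152 to the parent centriole, had 146, 132 and 168 in BxPC-3 and 67.1, 76.7 and 50.2 in AsPC-1 after PMA, and 188, 186 and 201 in BxPC-3 and 82.8, 70.5 and 90.1 in AsPC-1 untreated. All BxPC-3 arrays were above all AsPC-1 arrays, with differences of 1.18 ± 0.21 after PMA (adjusted p = 0.000663) and 1.21 ± 0.21 untreated (adjusted p = 0.000526). CEP89, a distal appendage protein, had 25.8, 27.9 and 26.2 in BxPC-3 and 18.1, 6.54 and 11.6 in AsPC-1 after PMA, and 44.4, 24.5 and 44.2 in BxPC-3 and 14, 7.45 and 16.7 in AsPC-1 untreated. The lines did not overlap, and the differences were 1.05 ± 0.37 (adjusted p = 0.0414) and 1.38 ± 0.37 (adjusted p = 0.0105). Its other probe sets had differences of 0.77, 0.84, 0.85, 1.21 and 0.26 after PMA and, in that order, 1.69, 1.41, 1.21, 0.03 and 0.07 untreated. The last of these was about as bright as the chosen one, with median signals of 20.8 and 21.3.

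CEP70 had 172, 172 and 182 in BxPC-3 and 53.8, 63.7 and 59 in AsPC-1 after PMA, and 158, 155 and 169.6 in BxPC-3 and 169.8, 43.1 and 46.6 in AsPC-1 untreated. Untreated replicate 1 of AsPC-1 was as high as the BxPC-3 arrays, so the untreated lines overlapped although the difference of 1.16 ± 0.38 passed (adjusted p = 0.0326). After PMA the lines were apart, with a difference of 1.53 ± 0.38 (adjusted p = 0.007). CEP15 had 172, 121 and 172 in BxPC-3 and 72.3, 89.1 and 95.9 in AsPC-1 after PMA, and 235, 216 and 216 in BxPC-3 and 66.5, 134 and 141 in AsPC-1 untreated. The lines were apart in both states, with differences of 0.82 (adjusted p = 0.0331) and 1.02 (adjusted p = 0.0113), and the call after PMA was lost without AsPC-1 PMA replicate 1 (adjusted p = 0.059).

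**Figure D5:**
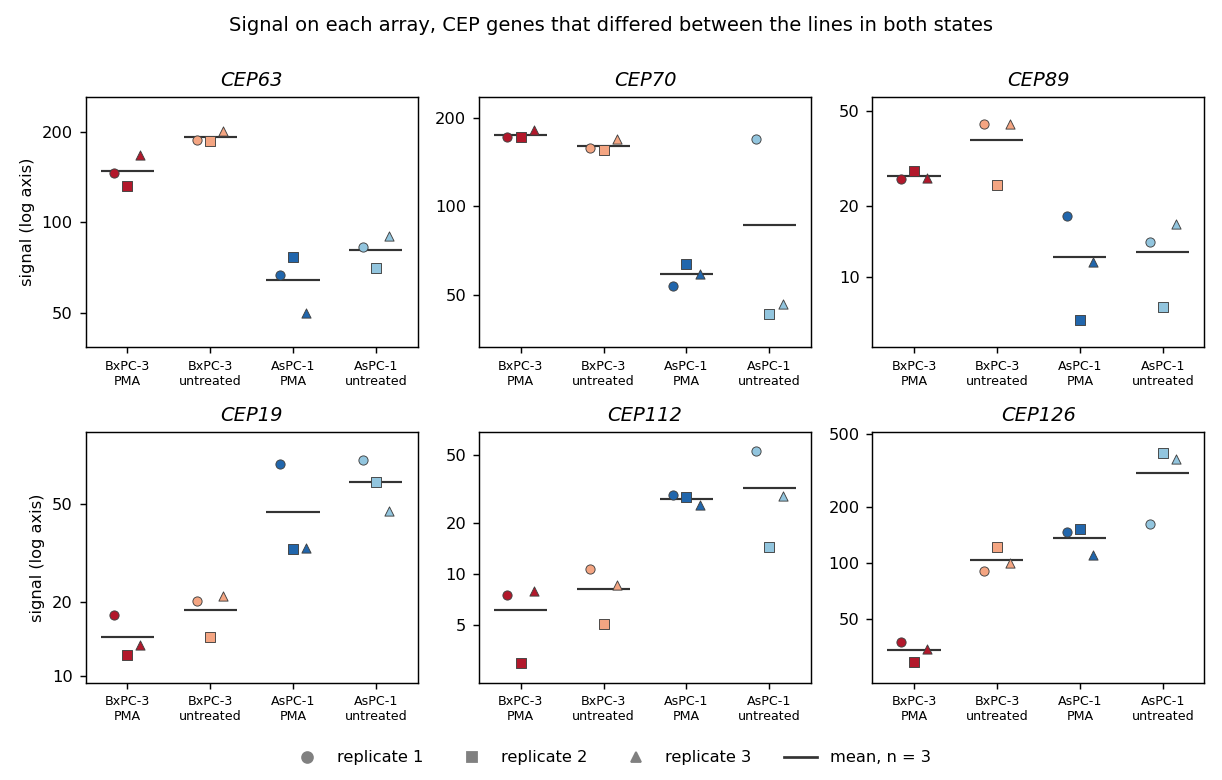
Signal on each array, on a log axis, of 6 of the 7 CEP genes that differed between the lines in both states, with PMA arrays left of untreated arrays in each line, marker shapes for the replicate and a bar for the mean of 3. CEP63, CEP70 and CEP89 are higher in BxPC-3 and CEP19, CEP112 and CEP126 lower, with AsPC-1 untreated replicate 1 of CEP70 at the BxPC-3 level.

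CEP126, CEP19 and CEP112 were lower in BxPC-3 in both states. CEP126, with the values given above, had the lines apart in both states and differences of -1.92 ± 0.30 after PMA (adjusted p = 0.000229) and -1.44 ± 0.30 untreated (adjusted p = 0.0022). Its 2 other probe sets had differences of -1.67 and -1.20 after PMA and of -1.78 and -1.47 untreated. CEP19, a mother-centriole protein that acts in cilium formation, had 17.7, 12.2 and 13.4 in BxPC-3 and 72.7, 32.8 and 33 in AsPC-1 after PMA, and 20.1, 14.3 and 21 in BxPC-3 and 75.3, 61.1 and 46.8 in AsPC-1 untreated. The lines were apart, with differences of -1.42 ± 0.33 (adjusted p = 0.00448) and -1.57 ± 0.33 (adjusted p = 0.00237).

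CEP112 was dim in BxPC-3, with 7.52, 2.99 and 7.99 after PMA and 10.7, 5.11 and 8.68 untreated, and had 29.3, 28.3 and 25.4 and 52.7, 14.5 and 28.9 in AsPC-1. The filter level was a signal of 8.18 to 10.2 depending on the array, so CEP112 was tested because of its AsPC-1 level, and a difference between the lines had to follow in part. The differences were -1.79 after PMA (adjusted p = 0.00469) and -1.53 untreated (adjusted p = 0.0131), and a second probe set, dimmer still, had 0.34 and 0.07.

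Further genes passed between the untreated lines and not after PMA. A change of their line difference with PMA is the difference of response given above, for which limma called 0 genes. CEP128, a subdistal appendage protein, had 107, 110.2 and 97.8 in untreated BxPC-3 and 60.9, 41.4 and 42.4 in untreated AsPC-1, a difference of 1.09 (adjusted p = 0.0252). CEP41, which supports tubulin glutamylation in cilia, had 189.5, 209 and 192 and 112, 98.7 and 92, a difference of 0.95 (adjusted p = 0.0174). CEP78, a protein of the distal end of centrioles, had 181, 178 and 186 and 103, 110.4 and 109, a difference of 0.74 (adjusted p = 0.0339). CEP85, with the values given above, was higher by 0.80 (adjusted p = 0.0272), and by 0.16 on its second probe set. For these 4 genes the untreated lines did not overlap.

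After PMA CEP128 had 106, 77.3 and 140.2 in BxPC-3 and 101, 39.3 and 38.9 in AsPC-1, CEP41 had 163, 116 and 142 and 143, 60.6 and 72.8, and CEP78 had 124, 84.8 and 104 and 112, 57.7 and 63.9. In each, AsPC-1 PMA replicate 1 reached into the BxPC-3 range and replicates 2 and 3 were below it. Without that array the differences after PMA passed for all 3 (adjusted p = 0.000847, 0.000708 and 0.00699).

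Lower in untreated BxPC-3 were also CEP43 and CEP55. CEP43, which anchors microtubules at the centrosome, had 77.8, 70.5 and 70.9 in BxPC-3 and 197, 160.4 and 126 in AsPC-1, a difference of -1.09 ± 0.23 (adjusted p = 0.00205). CEP55 differed by -0.82 ± 0.16 (adjusted p = 0.0016) on the values given above. After PMA CEP43 had 68.7, 66.2 and 56.7 in BxPC-3 and 119, 94.1 and 81.1 in AsPC-1, and neither gene passed (adjusted p = 0.0629 and 0.0929). Both genes had the lines apart in both states.

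After PMA 4 genes passed that had not passed untreated, and for these too limma called 0 differences of response. CEP120 and CEP164, on the values given above, were lower in BxPC-3, with differences of -0.94 ± 0.26 (adjusted p = 0.0121) and -0.74 ± 0.25 (adjusted p = 0.0363). Untreated, CEP120 already had the lines apart, with a difference of -0.63 (adjusted p = 0.0766), and CEP164 had overlap and a difference of 0.06. The other CEP164 probe sets had differences of -0.77 and -0.43 after PMA and of -0.70 and -0.35 untreated. CEP135, a protein of the centriole's cartwheel, had 103, 87.9 and 116 in BxPC-3 and 138, 169 and 169.9 in AsPC-1 after PMA, a difference of -0.62 ± 0.21 (adjusted p = 0.0381). Untreated it had 119, 126 and 108 and 141, 163 and 105, with overlap. The CEP135 call after PMA was lost with the replicate number as a block (adjusted p = 0.0562). CEP20, a cilium and satellite protein, had 1004, 999.6 and 1105 in BxPC-3 and 643, 787 and 749.5 in AsPC-1 after PMA, a difference of 0.51 ± 0.13 (adjusted p = 0.00844), and 1023, 948 and 887 and 924, 999 and 983 untreated, with overlap. Centring each array on its median lowered every difference after PMA by 0.107 on the log2 scale, and CEP15, CEP20 and CEP89 then lost their call and CEP43 gained one.

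Neighbouring genes of the centrosome and of mitosis, from lists of other symbols, give the setting of these values. Beside their counts, 532 of all 16099 genes fell and 405 rose in BxPC-3, and 116 fell and 200 rose in AsPC-1. Counts in lists this short are not read as a difference between lists. Of 17 tested genes of centriole assembly without a CEP symbol, 2 fell in BxPC-3 with PMA, HYLS1 (-1.56) and POC5 (-1.31), and 1 in AsPC-1, HYLS1 (-1.25). The list's median changes were -0.61 and -0.59. PLK4, the kinase that starts centriole copying, had changes of -0.61 ± 0.28 in BxPC-3 and -0.82 ± 0.28 in AsPC-1, and its partners STIL (-0.41 and -0.74) and SASS6 (-0.67 and -0.49) had negative values too, none past the threshold. CCP110, the partner of CEP97, had -0.84 ± 0.25 and -0.67 ± 0.25 and did not pass with all arrays.

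Of 14 genes of the pericentriolar material and the γ-tubulin ring, 1 fell in BxPC-3, TUBGCP5 (-1.29), and 0 were called in AsPC-1, with PCNT at -0.04 and -0.26 and CDK5RAP2 at -0.30 and -0.57. Of 7 augmin genes 1 fell in BxPC-3, HAUS3 (-0.91). Limma called 0 in either line of 12 satellite genes, with PCM1 at -0.56 and -0.30, of 12 linker and appendage genes, and of 29 cilium genes, whose median changes were -0.27 and -0.30. Of 16 genes of cytokinesis, to which CEP55 is a neighbour, 0 were called in BxPC-3, and in AsPC-1 KIF23 fell (-0.96) and CHMP1B rose (1.47).

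Genes of mitosis moved with PMA beside the CEP genes. Of 30 tested, 4 fell and 1 rose in BxPC-3, with BUB1B at -1.74, TTK at -1.08, HMMR at -0.93, MAD2L1 at -0.59 and UBE2C at 1.05. In AsPC-1 12 fell and 0 rose, the largest being NDC80 at -1.97, CCNA2 at -1.94, KIF11 at -1.57, TOP2A at -1.49, HMMR at -1.43 and AURKA at -1.33. The list's median changes were -0.39 in BxPC-3 and -1.05 in AsPC-1, beside -0.45 and -0.42 for the CEP genes. PLK1 had -0.34 ± 0.45 and -1.76 ± 0.45 and did not pass in either line. The part of the cell cycle in the CEP values was not tested.

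In all, 20 of the 32 genes passed in at least 1 of the 5 comparisons and 12 in none. The same share over all genes was not counted, but between the lines 32.4% of all genes passed untreated and 33.5% after PMA. The 12 included CEP97, CEP192, CEP44, CEP76, CEP72 and CEP350, described above, and CEP131, CEP162, CEP250, CEP290, CEP152 and CEP95. CEP152, the scaffold that hands PLK4 to the centriole, had groups apart with PMA in BxPC-3 (131, 93.1 and 116 against 189, 195 and 225), and the untreated lines were apart with a difference of 1.08 (adjusted p = 0.0501). CEP131, a satellite protein, and CEP162, a protein of the base of the axoneme, were dim, with signals under 40 on all arrays. On the chosen probe sets their changes were at most 0.39 in size in each of the 5 comparisons. A second CEP162 probe set, with a median signal of 18.3 beside 21.3 for the chosen one, had larger PMA changes of -0.97 in BxPC-3 and -0.81 in AsPC-1. Both PMA responses were negative for 24 of the 32 genes, and the same share over all genes was not counted.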

How the data were processed

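The study measured RNA with Affymetrix arrays in 12 samples, 4 groups of 3. The table the authors deposited gives linear signal intensity for 54675 probe sets, made with MAS5 per the submitters' processing notes, which name no version. Array signal carries no read depth, and the number of arrays limits the precision.

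Signals were turned into log2(signal + 3), which understates changes of dim genes, with no further normalization. The 62 control probe sets were left out. Of the rest, 41091 had 1 symbol and 1801 several in the platform annotation, and those with several were not named. Each gene was represented by its brightest probe set on average, and genes above the array's 40th percentile (a signal of 8.18 to 10.2) on at least 3 arrays were tested. The 4 group means were estimated jointly over the 12 arrays in R 4.3.3 with limma 3.58.1 (eBayes with trend, 8 residual degrees of freedom, two-sided, Benjamini-Hochberg, threshold 0.05). Comparisons were the PMA response of each line, the difference of these responses, and BxPC-3 against AsPC-1 in each state. With 3 arrays a side, the smallest exact permutation p is 0.1. The fit was tested on simulated data.

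Members, lists and tests were chosen with earlier results of these data known. Array values are given for members past the threshold in any comparison and for the 3 largest changes of each comparison, with a few further members chosen after their values were seen. From each list the text names genes past the threshold, up to 6 in a comparison and for the PMA responses only, and PLK4, SASS6, STIL, PCNT, CDK5RAP2, PCM1, CCP110, AURKA and PLK1 whatever their result; CENPJ, also in this rule, has no probe set of 1 symbol here. All 32 members matched RefSeq (GRCh38.p14) by Entrez ID, and promoter windows came from its table.

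Alternatives changed the pseudocount, the scaling, the filter, the summary of probe sets, the trend in eBayes or the arrays fitted (those of a comparison alone), or used a replicate block or left out each array in turn. The labels give treated and untreated arrays of a replicate the same passage, so the numbers pair them within a line. Deviations of paired arrays from their group means correlated at -0.054, -0.126 and -0.059 in BxPC-3 and at 0.411, 0.206 and 0.157 in AsPC-1, across genes.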

Additional observations from a re-analysis of the deposited data

How the results depend on the processing

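In the 3 comparisons with called CEP genes (PMA in BxPC-3, and the lines in each state), those genes kept their sign in each alternative run. The count of CEP genes called with PMA in BxPC-3 was 6 and fell to 3 with no filter on low values, 3 with the mean of all probe sets of a gene and 2 without the trend in eBayes, while it was 16 with the BxPC-3 arrays alone and between 1 and 12 with 1 array left out. It was 9 with passage as a replicate block, beside 6.06% of all genes. CEP126 kept its call in BxPC-3 in 11 of 12 fits with an array left out, CEP85 in 8, CEP68 in 5, and CEP57, CEP120 and CEP295 in 4 each. In AsPC-1 the count was 0, and 1 with the mean of all probe sets, 5 with passage as a replicate block and between 0 and 13 with 1 array left out. For the difference of responses it was 0, also with the replicate block, and between 0 and 2 with 1 array left out. Between the untreated lines it was 13, 7 with the mean of all probe sets, and between 8 and 16 with 1 array left out; after PMA it was 11, and between 7 and 18. Between lines the arrays share only a replicate number, and that number as a replicate block gave 15 and 12. After PMA, CEP135 and CEP164 kept their line call in 4 of 12 fits with an array left out, CEP89 in 5 and CEP15 in 8. The other genes called there kept it in all 12. The causes were not tested. Leaving out 1 array of 3 leaves 2 in its group and fewer degrees of freedom. For most of these runs the share of all genes called is not given, so the moves of the counts are not read as particular to the CEP genes. The signal carries no measure of background here, so low values of CEP112, CEP89, CEP131 and CEP162 are the least certain.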
